A study of Homo sapiens with 11 samples.

Results

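ARPE-19 cells that expressed Oct4, Sox2 and Klf4 together (OSK) were compared with ARPE-19 cells that expressed Klf4 alone, gene by gene. The 4 libraries of these groups, 2 OSK and 2 Klf4, were taken from the 11 of the study by their sample titles and the matching table columns. Of 60605 listed features, 18828 reached 10 normalised counts in 2 or more of the 11 libraries and were tested. KLF4 RNA was at a like level in both lines, and the comparison asks which RNAs differ when Oct4 and Sox2 are present beside Klf4. No line carried Klf4 with only one other factor, so a share of Oct4, a share of Sox2 and a joint share of both cannot be told apart within this comparison.

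ARPE-19 is an established human line derived from retinal pigment epithelium (RPE), the pigmented cell layer behind the photoreceptors. Stable lines expressed an open reading frame (ORF) for 4 days before polyadenylated RNA was sequenced: GFP, a fluorescent protein used as the control (3 libraries), or Oct4, Sox2, Klf4 or OSK (2 libraries each). All the lines share the ARPE-19 background, and the table's column names for all libraries but those of GFP carry an added "mC" whose meaning is not given in the sources used here. The sources used here also do not say which species the ORFs came from, which promoter drove them, whether a line was 1 clone, or whether the 2 libraries of a line came from separate cultures, so p-values measure the spread between these samples, which may be technical.

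Oct4 (gene POU5F1), Sox2 and Klf4 are transcription factors. Oct4 is a POU-domain protein that binds an octamer motif, often beside Sox2, an HMG-box protein, and the pair is known for holding the pluripotency network of embryonic stem cells together. Klf4 is a zinc-finger protein of the Krüppel-like family that binds GC-rich and CACCC motifs, and it is known outside stem cells for its part in the terminal differentiation of skin and gut epithelium.

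The recovered reads numbered 15521941 and 15602120 in the Klf4 libraries and 15726880 and 15556526 in the OSK libraries, within the range of 15053300 to 19791775 over the 11 libraries. OSK replicate 1 stood apart among the 4: it detected 32493 features, while the libraries other than it and GFP replicate 1 (42956) detected 25853 to 26971. Of 405 olfactory receptor genes, which are silent in most cells, it detected 23.0% against 6.42% in OSK replicate 2 and 4.94% and 5.43% in Klf4, and 0.226% of its reads fell in untested features against 0.121% to 0.128%. Results are therefore also given without OSK replicate 1, in which case the remaining OSK library is assumed to vary like the other groups. Of 27 marker genes of other cell types, 8 were at 0 in OSK replicate 1, 14 in OSK replicate 2, and 17 and 16 in Klf4. Their summed level was 669 and 648 normalised counts in OSK and 787 and 807 in Klf4, mostly from KDR. Of the leukocyte markers, PTPRC and LYZ were at 0 in all 4, CD14 was at 4.4 to 9.76, and ITGAM was at 11.9 in OSK replicate 1 and at 0 to 1.1 in the others. Of the liver markers, ALB was at 0 in all 4 and SERPINA1 at 20.6 to 37.4, and the endothelial marker VWF was at 27.5 to 46.3. Their part in the results was not tested. Fewer cells with a transcript and less of it in each cell cannot be told apart in these bulk libraries.

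The factor genes followed the labels in every library. POU5F1 was at 293 and 446 normalised counts in the Klf4 libraries and at 19020.3 and 19542 in the OSK libraries, a log2 difference of 5.73 ± 0.18 (SE; limma adjusted p = 1.2e-11). SOX2 was at 136 and 184 in Klf4 and at 17764 and 17582 in OSK (6.79 ± 0.20, limma adjusted p = 4.6e-12). KLF4 was at 24205 and 22142 in Klf4 and at 24469.8 and 24202 in OSK, values that overlapped (0.07 ± 0.31, limma adjusted p = 0.91). POU5F1 and SOX2 thus separated the groups by over an order of magnitude while KLF4 did not separate them. In the line with Oct4 alone POU5F1 stood at 67326 and 66823, and in the line with Sox2 alone SOX2 stood at 29106 and 29140.5, so that both single-factor lines held more RNA of their factor than the OSK line. Whether reads of an ORF and of the cell's own gene were counted alike was not tested.

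**Figure D1:**
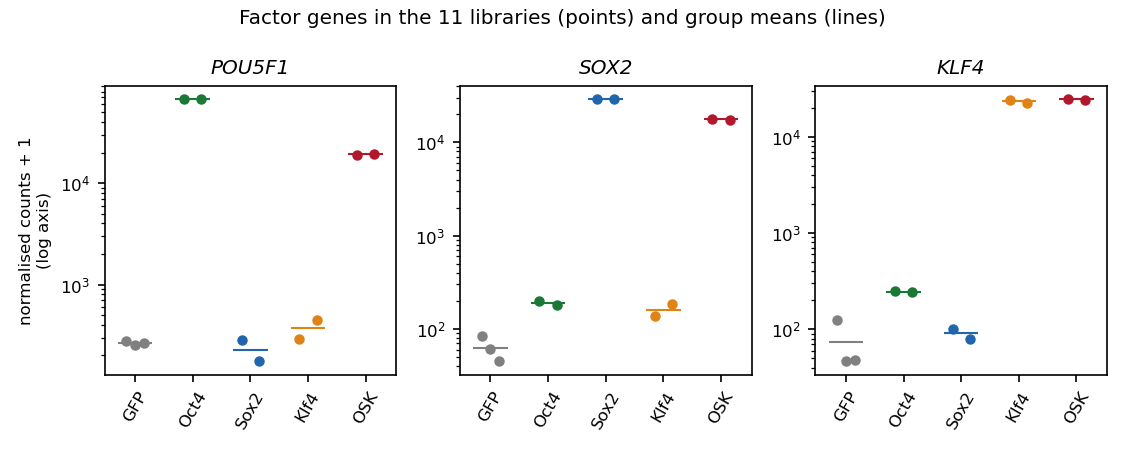
Normalised counts plus 1 (log axis) of POU5F1, SOX2 and KLF4 in each library (points; lines are group means) of the GFP, Oct4, Sox2, Klf4 and OSK lines. KLF4 points of Klf4 and OSK overlap, while POU5F1 and SOX2 are high in OSK and in the line of the factor itself.

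Across the 18828 genes, 4049 were called at a limma adjusted p under 0.05 (21.5%): 1800 were higher in OSK (9.56%) and 2249 lower (11.9%). The median log2 difference over all genes tested was -0.004, with an SD of 0.75 across genes. Among called genes the median was 0.54 for those higher and -0.72 for those lower, so that most called differences were under 2-fold. Of the called genes, 1206 (6.41% of those tested) differed by 1 or more on the log2 scale, 462 higher (2.45%) and 744 lower (3.95%). Differences of 3 or more were seen in 72 genes higher and 54 lower. Called genes were more frequent among protein-coding genes (11.8% higher and 14.7% lower of 13793) than among long noncoding genes (3.26% and 4.99% of 2483) and pseudogenes (2.60% and 1.83% of 1308). These shares are not matched for RNA level, and the fit misses many changes at low levels. Without OSK replicate 1, 1225 genes were called higher (6.51%) and 1628 lower (8.65%), and 1187 and 1545 of these were shared with the calls above. Leaving out OSK replicate 2 or Klf4 replicate 1 left 2519 and 2574 calls.

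**Figure D2:**
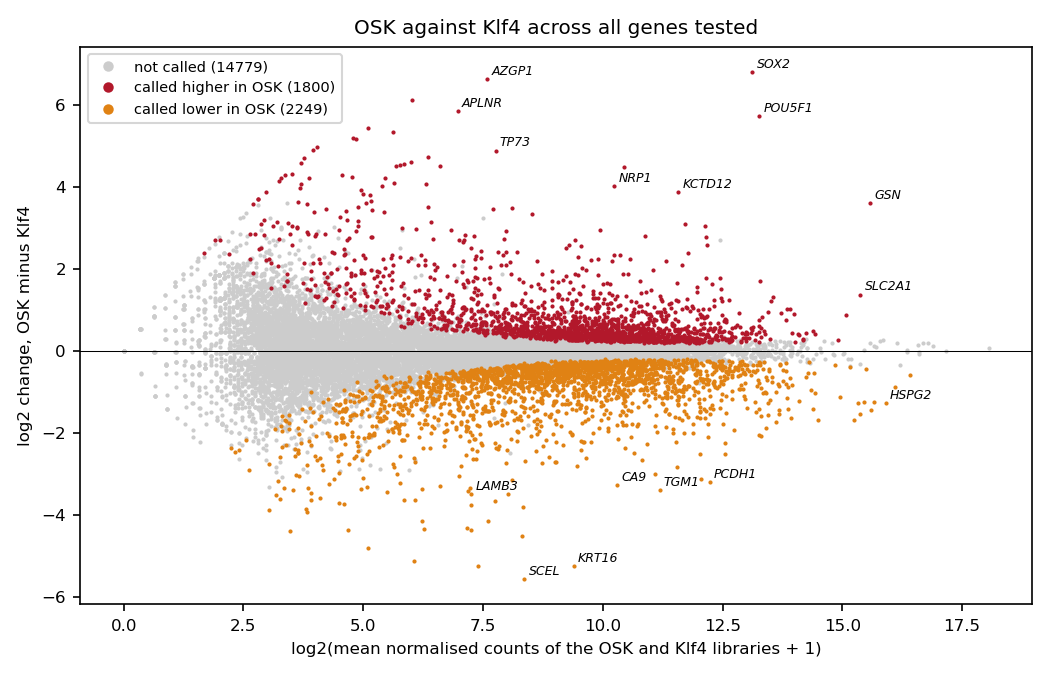
Log2 difference between OSK and Klf4 (vertical axis) against the log2 of the mean normalised count of the 4 libraries plus 1 (horizontal axis), 1 point for each gene tested, coloured by limma call. Genes called higher (1800) and lower (2249) lie on both sides over the whole range of levels, with SOX2, AZGP1 and POU5F1 at the top and SCEL and KRT16 at the bottom.

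The largest rises apart from the factor genes began from almost no RNA in the Klf4 line. AZGP1, which encodes the secreted zinc-alpha-2-glycoprotein, was at 3.47 and 2.29 normalised counts in Klf4 and at 362 and 396 in OSK (log2 6.63 ± 0.73, limma adjusted p = 6.3e-06). MS4A2, the beta chain of the high-affinity IgE receptor, was at 2.31 and 0 in Klf4 and 129 and 123 in OSK, at a limma adjusted p of 0.00068. For MS4A2 the ratio of OSK to Klf4 reads was 109.7, with an exact 95% counting interval of 30.03 to 911 (231 reads in OSK and 2 in Klf4). APLNR, the receptor for apelin, was at 2.31 and 4.57 in Klf4 and 256 and 235 in OSK (5.84 ± 1.07, limma adjusted p = 0.0008). In each of these 3 genes the OSK libraries were close to each other and far from both Klf4 libraries. The naming rule required libraries without overlap, as in 28.8% of genes tested with OSK higher, and took the largest differences. The distance between the groups therefore adds no support. The means in GFP, Oct4 and Sox2 were 9.25, 18.98 and 3.53 for AZGP1. They were 1.66, 0.58 and 0 for MS4A2, and 4.97, 1.74 and 1.84 for APLNR. The GFP means rest largely on GFP replicate 1, which stood apart. It held 21.85 of AZGP1, 4.97 of MS4A2 and 13.9 of APLNR. GFP replicates 2 and 3 held 2.02 and 3.89 of AZGP1, 0 and 0 of MS4A2, and 1.01 and 0 of APLNR. The Oct4 libraries held 13.93 and 24.04 of AZGP1. With GFP replicate 1 included, none of the 3 was called in the Oct4 or the Sox2 line against GFP. Against GFP the log2 differences in Oct4 and Sox2 were 1.47 and -0.65 for AZGP1, -0.30 and -0.86 for MS4A2, and -0.55 and -0.17 for APLNR.

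TP73, a transcription factor of the p53 family, was at 13.9 and 12.6 in Klf4 and 446 and 394 in OSK (4.88 ± 0.70, limma adjusted p = 8.1e-05). UCN2, the peptide hormone urocortin 2, was at 0 and 4.57 in Klf4 and 89.97 and 97.9 in OSK (5.33 ± 0.85, adjusted p = 0.00023). ERVE-1, a locus of an endogenous retrovirus, was at 1.16 and 0 in Klf4 and 87.8 and 44.00 in OSK. For ERVE-1 the ratio of OSK to Klf4 reads was 115, with an exact 95% counting interval of 20.2 to 4576 (121 reads in OSK and 1 in Klf4). Also among the 10 largest rises were the long noncoding RNA LINC02582 (3.47 and 6.86 in Klf4, 139 and 173 in OSK) and the pseudogene THAP12P8 (0 and 1.14 in Klf4 and 58.5 and 46.2 in OSK), whose reads may be shared with its parent gene. All 10 kept their call without OSK replicate 1, ERVE-1 with a limma adjusted p of 0.048. How the authors' counting used the strand is not given in the sources used here, so reads of a gene and of an antisense partner cannot be told apart.

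The largest falls were led by genes of stratified, cornifying epithelium that were high in the Klf4 line. SCEL, sciellin, a precursor of the cornified envelope, was at 758 and 531 normalised counts in Klf4 and 10.8 and 14.3 in OSK (log2 -5.56 ± 0.70, limma adjusted p = 2.2e-05). KRT16, a keratin of activated keratinocytes, was at 1317 and 1289 in Klf4 and 53.1 and 20.9 in OSK (-5.24 ± 1.05, limma adjusted p = 0.0018). ATP10B, a lipid-flipping ATPase, was at 442 and 210.2 in Klf4 and 6.5 and 7.7 in OSK (-5.24 ± 0.53, adjusted p = 2.2e-06). The Klf4 libraries lay far above the OSK libraries in all 3, which the naming rule required, so it adds no support. The Klf4 libraries of ATP10B differed from each other by over 2-fold. In the GFP line the means were 1.64 for SCEL, 8.62 for KRT16 and 35.01 for ATP10B, so that the OSK libraries were nearer to GFP than to Klf4 in all 3 genes. The OSK line still differed from GFP in each. SCEL (log2 2.57, limma adjusted p = 0.0042) and KRT16 (3.03, adjusted p = 0.02) were above GFP, and ATP10B (-2.09, adjusted p = 0.0024) was below it. The other 7 of the 10 largest falls included KRT14, a basal keratin (111 and 147 in Klf4, 3.25 and 2.2 in OSK), and KRT4, a mucosal keratin (189 and 105 in Klf4 and 5.42 and 6.6 in OSK). They further included TRIM29 (379 and 351 in Klf4 and 24.9 and 15.4 in OSK) and the cytokine IL32 (69.4 and 59.4 in Klf4 and 4.34 and 0 in OSK). The last 3 were the metalloprotease ADAM33 (655 and 571 in Klf4 and 28.2 and 23.1 in OSK), SIGLEC1, a sialic acid-binding lectin (357 and 217 in Klf4 and 27.1 and 5.5 in OSK), and TPPP3, a tubulin-binding protein (327 and 216 in Klf4 and 17.3 and 8.8 in OSK). KRT16 and KRT14 have close copies in the genome, and reads shared with them make their levels uncertain. The call of KRT14 was lost without Klf4 replicate 2 (limma adjusted p = 0.054), that of KRT4 without Klf4 replicate 1 (0.063) and that of IL32 without OSK replicate 2 (0.056).

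Promoter windows were looked up for the 3 largest rises other than the factor genes and the 3 largest falls, because octamer and SOX letters near a start bear on a comparison that adds Oct4 and Sox2. RefSeq windows (GRCh38.p14, 250 bases before to 50 after the annotated start) were held for AZGP1, MS4A2, SCEL and ATP10B, and not for APLNR or KRT16. That of KCTD12, described below, was added after its values were seen. On both strands, the octamer ATGCAAAT, the SOX letters ACAATG and ACAAAG, the joint SOX and POU motif and the KLF letters CCACACCC were searched, and matches are in capitals. Letters of the octamer are also part of the joint motif. The AZGP1 window (chr7:99975982-99976281, minus strand) and the KCTD12 window (chr13:76886356-76886655, minus strand) held the octamer, AZGP1 on the opposite strand at bases 66 to 73 and KCTD12 at bases 119 to 126, counted from 1 at the 5′ end. AZGP1, SCEL (chr13:77535456-77535755, plus strand) and the first of the 2 ATP10B windows (chr5:160852162-160852461, minus strand) held SOX letters, and MS4A2 (chr11:60088414-60088713, plus strand) and the second ATP10B window held none of the letters searched.
AZGP1: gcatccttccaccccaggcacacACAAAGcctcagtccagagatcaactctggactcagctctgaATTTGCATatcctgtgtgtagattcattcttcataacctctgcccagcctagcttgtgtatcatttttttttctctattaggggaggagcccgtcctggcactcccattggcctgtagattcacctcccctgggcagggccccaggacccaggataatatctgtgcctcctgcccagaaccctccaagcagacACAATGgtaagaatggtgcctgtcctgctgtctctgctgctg
MS4A2: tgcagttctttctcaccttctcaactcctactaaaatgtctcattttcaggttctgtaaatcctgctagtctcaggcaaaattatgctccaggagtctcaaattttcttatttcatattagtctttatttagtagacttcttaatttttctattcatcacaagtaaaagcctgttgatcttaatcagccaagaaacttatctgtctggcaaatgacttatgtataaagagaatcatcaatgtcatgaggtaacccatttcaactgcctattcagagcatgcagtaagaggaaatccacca
SCEL: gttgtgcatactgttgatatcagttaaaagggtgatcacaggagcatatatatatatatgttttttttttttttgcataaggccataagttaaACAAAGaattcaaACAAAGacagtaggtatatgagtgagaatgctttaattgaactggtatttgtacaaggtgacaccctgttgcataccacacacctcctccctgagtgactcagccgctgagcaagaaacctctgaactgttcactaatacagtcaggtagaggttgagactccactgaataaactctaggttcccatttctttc
ATP10B: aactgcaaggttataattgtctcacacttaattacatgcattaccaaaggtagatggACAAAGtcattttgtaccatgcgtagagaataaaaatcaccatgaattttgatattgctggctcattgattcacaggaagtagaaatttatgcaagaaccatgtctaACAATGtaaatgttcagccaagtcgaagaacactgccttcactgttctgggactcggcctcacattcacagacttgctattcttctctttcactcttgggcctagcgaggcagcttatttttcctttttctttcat
KCTD12: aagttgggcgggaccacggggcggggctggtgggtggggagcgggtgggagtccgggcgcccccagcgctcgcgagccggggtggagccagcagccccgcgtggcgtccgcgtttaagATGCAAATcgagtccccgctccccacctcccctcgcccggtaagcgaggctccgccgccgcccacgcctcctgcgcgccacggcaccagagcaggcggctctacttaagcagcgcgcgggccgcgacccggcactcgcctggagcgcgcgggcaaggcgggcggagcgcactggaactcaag
Over all 35116 windows of that table, 1.77% held the octamer, 10.8% ACAATG, 16.1% ACAAAG, 3.28% CCACACCC and 0.0057% (2 windows) the joint motif. A match is a description of these letters and not a bound site.

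Several genes with high RNA levels changed as well, and apart from GSN, KCTD12 and SLC2A1 those in the description of abundant genes were chosen after their values were seen. GSN, the actin-severing protein gelsolin, rose from 7363 and 7689 normalised counts in Klf4 to 89669 and 92031 in OSK (3.59 ± 0.08, limma adjusted p = 6e-13), and was at a mean of 3009 in GFP, 4159 in Oct4 and 6828 in Sox2. KCTD12, an auxiliary subunit of the GABA-B receptor, rose from 401 and 377 to 5436 and 6016 (3.87 ± 0.18, adjusted p = 1e-09). TMC6, a membrane protein mutated in epidermodysplasia verruciformis, rose from 778 and 633 to 6400.1 and 5662 (3.10 ± 0.13, adjusted p = 2.3e-10), although it was lower than GFP in the Oct4 line (-1.17, adjusted p = 8.7e-07) and in the Sox2 line (-2.58, adjusted p = 7.5e-11). The glucose transporter SLC2A1 rose from 23009 and 24416 to 60506 and 62076 and tissue factor F3 from 6889 and 6957 to 17904 and 16535. The drug exporter ABCC1 rose from 4428 and 4992 to 15481 and 15117 and the nuclear envelope protein SUN2 from 9959.8 and 10222 to 20350.5 and 20843. In all 7 genes both OSK libraries lay above both Klf4 libraries, as they did in 28.8% of genes tested. This was required or already seen when the 7 genes were chosen, so it adds no support.

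Among abundant genes that fell were proteins of basement membrane and of matrix turnover. HSPG2, perlecan, was at 81220.4 and 92658 in Klf4 and 37709 and 33921 in OSK (-1.28 ± 0.16, limma adjusted p = 2.3e-05). COL18A1, the collagen that yields endostatin, went from 58504 and 59764 to 18750.4 and 18084 (-1.68 ± 0.14, adjusted p = 3.3e-07). The metalloprotease inhibitors TIMP3 (65731 and 60994 to 25921 and 27063) and TIMP2 (59168 and 58100.2 to 24631 and 23739) fell by 1.26 and 1.28 on the log2 scale. In these 4 genes no OSK library reached a Klf4 library, as in 31.6% of genes tested, which was likewise required or already seen in their choice. SEMA3B, a secreted semaphorin, ABCA2, a lipid transporter, and the large scaffold proteins AHNAK and PLEC also fell, by 1.45, 1.24, 0.87 and 1.55. Falls over 3 on the log2 scale at lower levels were seen for the protocadherin PCDH1 (8821 and 8577 in Klf4, 944 and 929 in OSK), the focal adhesion protein TNS1 (7019.6 and 8181 in Klf4 and 833 and 899 in OSK) and the epidermal cross-linking enzyme TGM1 (4407 and 4088 in Klf4 and 472 and 342 in OSK). TNS1 was higher than GFP in the Oct4, Sox2 and Klf4 lines (0.78, 1.01 and 1.05) and lower in the OSK line (-2.08), each at a limma adjusted p under 0.05.

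**Figure D3:**
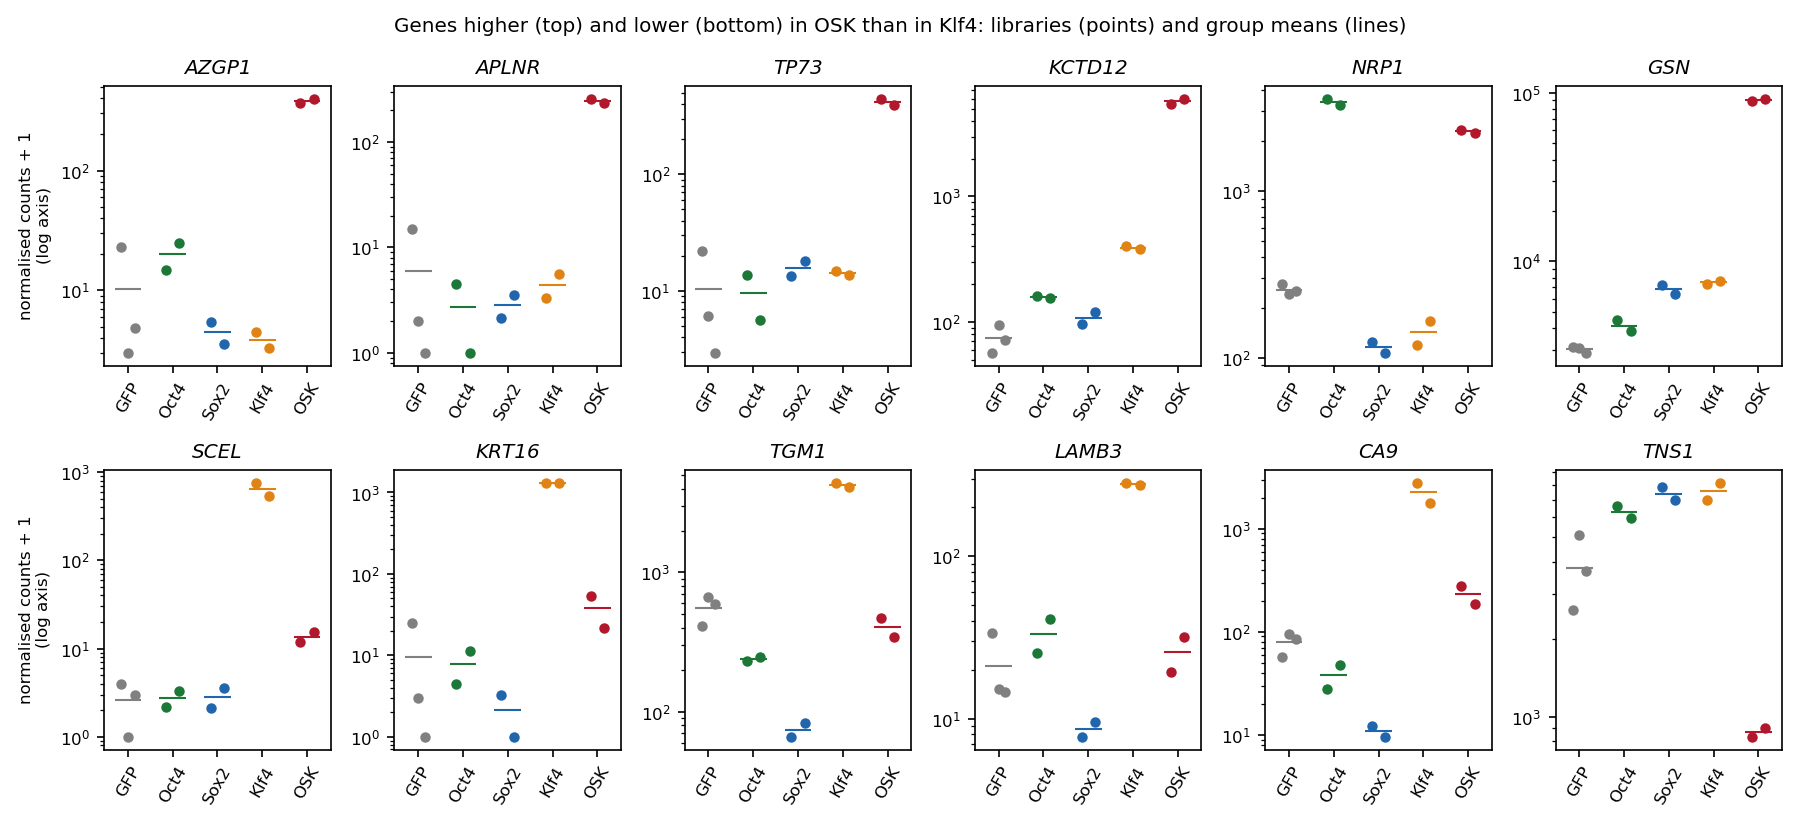
Normalised counts plus 1 (log axes, which differ between panels) of 6 genes higher and 6 genes lower in OSK than in Klf4, in each library (points; lines are group means) of the 5 groups. AZGP1, APLNR and TP73 are high in OSK only among the groups shown, NRP1 is high in Oct4 and OSK, and SCEL, KRT16 and LAMB3 are high in Klf4.

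The Oct4 minus GFP and Sox2 minus GFP differences share no library with OSK minus Klf4, and were set beside it. The same fit gave all of them, with a shared estimate of each gene's spread. Oct4 called 3780 genes higher (20.1%) and 3238 lower (17.2%) than GFP, and Sox2 called 4080 (21.7%) and 3744 (19.9%), 41.6% in all. Of the 1800 genes higher in OSK than in Klf4, 560 (31.1%) were also higher in both single-factor lines, against 10.8% of all genes tested. A further 299 (16.6%, against 9.31%) were higher with Oct4 but not Sox2, 276 (15.3%, against 10.9%) with Sox2 but not Oct4, and 665 (36.9%, against 69.0%) with neither. Of the 2249 genes lower in OSK, 711 (31.6%, against 10.3%) were lower in both lines, 243 (10.8%, against 6.93%) with Oct4 but not Sox2, 304 (13.5%, against 9.62%) with Sox2 but not Oct4, and 991 (44.1%, against 73.2%) with neither. The shares in the classes with a call were above those of all genes tested in both directions, by most in the class of both lines. Opposite calls were also found, at shares below those of all genes tested: of the genes higher in OSK, 219 (12.2%, against 17.2%) were lower than GFP with Oct4 and 294 (16.3%, against 19.9%) with Sox2. Of the genes lower in OSK, 358 (15.9%, against 20.1%) were higher than GFP with Oct4 and 411 (18.3%, against 21.7%) with Sox2. No call in either line was found for 21.1% of the genes higher and 22.5% of those lower, against 45.0% of all genes tested. A gene of low spread is called more readily in every contrast, and the shares of all genes tested are not matched for this. These shares are descriptions without a test. Across the 18828 genes, which are not independent replicates, OSK minus Klf4 correlated with Oct4 minus GFP at r = 0.19 (rho = 0.18) and with Sox2 minus GFP at r = 0.17 (rho = 0.14), a weak relation given as a description. With edgeR's fold changes r was 0.0089 and -0.0067 and rho 0.16 and 0.12. Both single-factor differences share the GFP libraries, of which GFP replicate 1 stood apart, and without it r was 0.25 and 0.22.

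**Figure D4:**
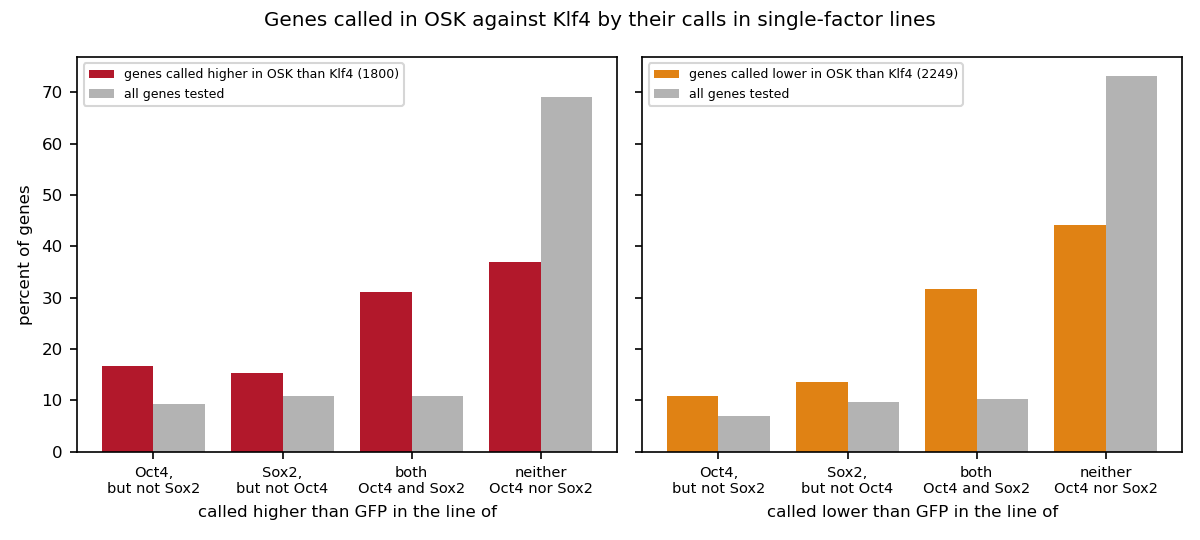
Percent of genes (vertical axis, from 0) by whether the Oct4 or the Sox2 line was also called in the same direction against GFP, for the genes called higher (left) or lower (right) in OSK than in Klf4 and for all genes tested (grey). The bars for both lines stand at 31.1% and 31.6% against 10.8% and 10.3% of all genes tested.

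Genes of the Oct4 class included ILDR2 (8.1 and 8 in Klf4, 151 and 148 in OSK, mean 274 in Oct4 and 9.06 in Sox2) and, chosen after their values were seen, NRP1, THRB and ITPR1. NRP1, a co-receptor for semaphorins and VEGF, was at 119 and 165 in Klf4, 2323 and 2229 in OSK and 3565 and 3280.2 in Oct4, and at a mean of 115 in Sox2. Its OSK minus Klf4 difference (4.01 ± 0.13) stood beside 3.74 for Oct4 minus GFP and -1.15 for Sox2 minus GFP, a pattern for which it was chosen. The thyroid hormone receptor THRB was at 40.5 and 47.99 in Klf4, 494 and 517 in OSK and a mean of 1679.9 in Oct4. The calcium release channel ITPR1 was at 894 and 1054 in Klf4, 8776 and 7207 in OSK and a mean of 6613 in Oct4. In these 4 genes the Sox2 line was at or below the level of 10.9 (ILDR2), 256 (NRP1) and 1149 (ITPR1) in GFP, except THRB, which had 110.0 against 86.1. POU5F1P3 and POU5F1P4 also fell in this class, but both are near-identical copies of POU5F1 and their reads may come from it.

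The Sox2 class held HTR1D, a serotonin receptor (2.31 and 4.57 in Klf4, 111 and 84.7 in OSK, mean 94.7 in Sox2). It also held PRKAR2B, a regulatory subunit of protein kinase A (78.7 and 53.7 in Klf4, 707 and 629 in OSK, mean 442 in Sox2). The pseudogene CD99P1 was at 16.2 and 8 in Klf4, 92.1 and 104 in OSK and a mean of 71.2 in Sox2. NRCAM, a neuronal adhesion protein, was at 3.47 and 8 in Klf4, 49.9 and 52.8 in OSK and a mean of 94.4 in Sox2. The call of NRCAM was lost without any 1 of the 4 compared libraries (limma adjusted p = 0.14 without OSK replicate 1, 0.17 without OSK replicate 2, 0.22 without Klf4 replicate 1 and 0.066 without Klf4 replicate 2). Genes higher in both lines as well included GSN, KCTD12 and SSPOP, a pseudogene listing of SCO-spondin (118 and 118 in Klf4, 2889 and 2479 in OSK). The OSK minus Klf4 difference, for whose size these 3 were named, stood beside those of Sox2 and Oct4 from GFP. It was 3.59 against 1.18 and 0.46 for GSN and 3.87 against 0.56 and 1.11 for KCTD12. For SSPOP it was 4.49 against 1.35 and 0.79. Over all genes the OSK minus Klf4 difference was called different from Sox2 minus GFP for 5656 genes (30%) and from Oct4 minus GFP for 4795 (25.5%).

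Falls in the Oct4 class included DCDC2, a microtubule-binding protein (673 and 472 in Klf4, 80.2 and 92.4 in OSK), and the matrix protease ADAMTS15 (3283 and 2956 in Klf4 and 489 and 492 in OSK). The class also held the receptor kinase TYRO3 (2947 and 2494 in Klf4 and 509 and 455 in OSK) and PDLIM4, an actin-associated LIM protein (1322 and 1188 in Klf4 and 247 and 221 in OSK). DCDC2 and ADAMTS15 went the other way in the Sox2 line, at 0.78 and 0.39 against GFP. Falls in the Sox2 class were ADAM33, RAP1GAP (170.0 and 109 in Klf4 and 13.01 and 3.3 in OSK), the kinase PAK6 (430.3 and 369 in Klf4 and 26.02 and 35.2 in OSK) and GPR37L1 (477 and 483 in Klf4 and 42.3 and 40.7 in OSK). Those in the class of both lines were ATP10B, SIGLEC1, TRIM29 and NECTIN4, an adhesion protein (246 and 319 in Klf4 and 16.3 and 24.2 in OSK). Some of these genes were low in GFP and highest in GFP replicate 1, which stood apart. Over the 3 GFP libraries SIGLEC1 was at 41.7, 11.1 and 11.7 and TRIM29 at 48.7, 14.2 and 21.4. ADAM33 was at 18.9, 3.03 and 12.6 and RAP1GAP at 41.7, 5.06 and 10.7. ATP10B was instead lowest in GFP replicate 1 (20.9, 39.5 and 44.7). In all 12 genes the Klf4 line was above GFP at a limma adjusted p under 0.05, and no OSK library reached a Klf4 library. The naming rule required the latter, and choosing the largest falls from Klf4 favours the former, so neither describes the classes as a whole.

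The counts of the gene lists that follow are to be read against 2 sets of shares. Of all genes tested 9.56% were higher and 11.9% lower, and of the protein-coding genes tested 11.8% and 14.7%. Neither set is matched to the lists for RNA level or spread, so a list above these shares is a description without a test. Of 59 listed genes of the cornified envelope and stratified epithelium, 26 were tested, 2 were higher and 13 lower, and the median log2 difference was -0.80 against -0.004 over all genes. Of 8 desmosome genes, which join epithelial cells, 7 were lower, among them desmoplakin DSP (16759.7 and 15914 in Klf4, 9364 and 9285 in OSK), plakoglobin JUP (3215 and 3485 in Klf4 and 1630.4 and 1677 in OSK) and desmoglein DSG2 (2189.5 and 1865 in Klf4 and 1208 and 1175 in OSK). The member of the envelope group that rose was FLG, filaggrin, which bundles keratin in the skin (192 and 167 in Klf4, 1312 and 1053 in OSK, 2.71 ± 0.35, limma adjusted p = 2.7e-05). The keratin that rose was KRT13, of mucosal epithelium (1422 and 1469 in Klf4 and 3832 and 2913 in OSK, 1.21 ± 0.25, adjusted p = 0.002). KRT13 lost its call without OSK replicate 1 (limma adjusted p = 0.051). KRT13 and KRT16, at like levels in the Klf4 line, thus moved apart in the OSK line. Leaving out each compared library in turn left 1 to 2 higher and 11 to 13 lower.

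Epithelial junction genes and their regulators had 1 of 41 higher and 13 lower, with a median of -0.55. LAMB3, the beta chain of epithelial laminin, which anchors epithelium to its basement membrane, was at 282 and 273 in Klf4 and 18.4 and 30.8 in OSK (-3.49 ± 0.43, limma adjusted p = 2e-05). ITGB4, the integrin of the hemidesmosome, was at 17559 and 16816 in Klf4 and 4930.2 and 4382 in OSK (-1.89 ± 0.11, adjusted p = 1.2e-08). Its partner ITGA6, the member that rose, was at 3022 and 2378 in Klf4 and 5638 and 5144 in OSK (1.01 ± 0.13, adjusted p = 3e-05). The RNAs of the 2 chains of integrin alpha6 beta4 therefore changed in opposite directions. E-cadherin CDH1 (187 and 219 in Klf4, 71.5 and 47.3 in OSK) and claudin CLDN1 (748 and 825 in Klf4 and 253 and 318 in OSK) fell. So did the simple keratins KRT8 (13573 and 12766 in Klf4 and 6803 and 7222 in OSK) and KRT18 (5368 and 4829.9 in Klf4 and 3097 and 3351 in OSK). The polarity gene CRB3 fell as well (85.6 and 79.98 in Klf4 and 32.5 and 13.2 in OSK), with a call that was lost (limma adjusted p = 0.21 without OSK replicate 2, 0.093 without Klf4 replicate 1 and 0.066 without Klf4 replicate 2). Leaving out each library in turn left 1 higher and 12 to 13 lower.

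Mesenchymal and matrix genes changed in both directions: 9 of 43 were higher and 16 lower, and the median was 0.003. Cadherin 11 (CDH11), typical of mesenchyme, rose from 1898 and 2214 to 7057 and 6994 (1.78 ± 0.10, limma adjusted p = 5.9e-09), and the transcription factor ZEB1, a repressor of epithelial genes, from 479 and 497 to 919 and 854. The collagen cross-linking enzyme LOX rose from 2893 and 2905 to 6394 and 5308, while its relative LOXL1 fell from 6547 and 6944 to 2441 and 2422. COL11A1 rose (3727 and 4496 to 7091 and 7840.1) and the basement membrane collagen COL4A1 fell (16041 and 14172 to 5775 and 4348). Elastin, ELN, fell from 3229 and 3199 to 798 and 551 (-2.28 ± 0.26, limma adjusted p = 9.5e-06). Of 18 other matrix, cross-linker and protease genes, 11 fell and 2 rose, and 7 fell without OSK replicate 1. Of 11 collagens, 4 rose and 3 fell. Leaving out each library in turn left 6 to 9 higher and 9 to 11 lower, with 9 lower without OSK replicate 1. Contractile genes and targets of the serum response factor had 3 of 30 higher and 10 lower (median -0.30), and 0 to 1 higher and 6 to 8 lower with a library left out. The LIM protein PDLIM7 fell from 6955 and 7061 to 2628 and 2664. The YAP targets ANKRD1 (1345 and 1528 to 564 and 563) and AMOTL2 (7396 and 7446 to 4318 and 4154) fell. CCN1, another one, was at 4126 and 4982 in Klf4 and 5693 and 6133 in OSK (0.38 ± 0.11, limma adjusted p = 0.02; adjusted p = 0.058 without OSK replicate 1, 0.17 without OSK replicate 2 and 0.26 without Klf4 replicate 1).

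Genes of the retinal pigment epithelium had 6 of 34 higher and 12 lower (median -0.58), and 6 higher and 7 to 13 lower with a library left out, the fewest without Klf4 replicate 1. Of the defining markers the visual cycle isomerase RPE65 was at or near 0 in the 4 libraries (4.63, 0, 1.08 and 1.10), while MITF, TYRP1, PMEL and SERPINF1 were present. Pigment genes fell or were not called, 5 lower and 0 higher of 9. MITF, the transcription factor that drives them, was at 2343 and 2515 in Klf4 and 1590.3 and 1732 in OSK (-0.55 ± 0.08, limma adjusted p = 0.00013). Tyrosinase TYR, the first enzyme of melanin synthesis, was at 403 and 217 in Klf4 and 108 and 64.9 in OSK (-1.80 ± 0.40, adjusted p = 0.0037). TYR lost its call without a library (limma adjusted p = 0.077 without OSK replicate 2 and 0.076 without Klf4 replicate 1), as did the channel gene TRPM1 (620.0 and 255 in Klf4 and 87.8 and 61.6 in OSK; adjusted p = 0.053 without Klf4 replicate 1). TYR was at a mean of 44.8 in Oct4, 14.3 in Sox2 and 480.3 in GFP. PMEL, another of the 5 pigment genes that fell (1356 and 1184 in Klf4, 868 and 749 in OSK), lost its call without any 1 of the 4 compared libraries. Its log2 difference was then -0.76 to -0.54. The phagocytosis receptor MERTK (20.8 and 34.3 to 122 and 131) and the matrix protein EFEMP1 (25012 and 23774 to 48723 and 40499) rose. The lactate transporter SLC16A3 (30616 and 31924 to 11820.2 and 11615), the retinoid carrier RLBP1 (39.3 and 20.6 to 3.25 and 3.3) and SERPINF1, the anti-angiogenic factor PEDF (1092 and 596 to 369 and 296), fell.

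Of 28 listed genes of the pluripotency network 15 were tested, the 2 that rose were POU5F1 and SOX2 themselves, and the 1 that fell was PODXL, a surface sialomucin (5781 and 4774 to 1771 and 1643, -1.62 ± 0.16, limma adjusted p = 1.3e-06). The median of the 15 was -0.30. Eye field and neural progenitor genes had 1 of 22 higher and 5 lower (median -0.17), and 1 higher and 4 to 5 lower with a library left out. The rise was MAP2, a microtubule protein of neurons, from 1205 and 1433 to 7558 and 8235 (2.58 ± 0.10, limma adjusted p = 1.7e-10), with a mean of 5006 in Sox2 and 2135 in Oct4. SOX9 (4259.9 and 3891 to 2035 and 2172), LHX2, a regulator of eye development (1739.6 and 1998 to 1071 and 1097), and neuronal tubulin TUBB3 (119 and 94.8 to 54.2 and 60.5) fell. MAP2 and TUBB3, both neuronal cytoskeleton genes, went in opposite directions. Among the relatives of the added factors and of Klf4, 6 of 25 SOX and KLF family genes were higher and 8 lower (median -0.02), and 4 to 6 higher and 5 to 7 lower with a library left out, the fewest lower without Klf4 replicate 2. SOX5 rose (82.1 and 60.6 to 384 and 373) and SOX8 fell (5493 and 4979.6 to 726 and 749, -2.82 ± 0.20, limma adjusted p = 6e-08). In the KLF family KLF9 (3616 and 3966 to 8914 and 8889) and KLF12 (658 and 584 to 932 and 1099) rose, and KLF10 (1041 and 978 to 334 and 414), KLF13 (2143 and 1838 to 1204 and 1074) and KLF5 (1349 and 1394 to 956 and 1088) fell.

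Oxidative defence genes, which the study's title concerns, were divided: 18 of 80 rose and 20 fell, with a median of -0.04. GSTA4, a glutathione transferase that detoxifies the lipid peroxidation product 4-hydroxynonenal, was at 177 and 129 in Klf4 and 515 and 464 in OSK (1.69 ± 0.19, limma adjusted p = 6.9e-06). Its means were 114 in GFP, 188 in Oct4 and 181 in Sox2, and its OSK minus Klf4 difference was greater than that of Sox2 (0.69; adjusted p of the difference = 0.0071) and of Oct4 (0.74; 0.012) from GFP. Such calls were made for 13.4% and 9.91% of genes tested. Glutaredoxin GLRX, which reduces glutathionylated proteins, rose from 183 and 177 to 1042 and 1119 (2.58 ± 0.15, limma adjusted p = 7.3e-09), and peroxiredoxin PRDX6 from 3103 and 2833 to 8530.2 and 8294 (limma adjusted p = 4.7e-09). Against GFP, GLRX differed by 0.01 in the Oct4 line and by -0.40 in the Sox2 line. Of 17 genes of glutathione synthesis and transfer, 7 rose and 4 fell. GCLM, 1 of the 7, lost its call without any 1 of the 4 compared libraries, at log2 differences of 0.33 to 0.38. Those that rose included the synthesis enzyme GCLC (614 and 642 to 969 and 1022) and the glutathione reductase GSR (1452 and 1393 to 2740.4 and 2521). Others were the omega transferase GSTO1 (1080.3 and 1048 to 2242 and 2077) and the cystine importer SLC7A11 (77.5 and 66.3 to 139.8 and 172; limma adjusted p = 0.056 without OSK replicate 2). The 4 that fell were the mu-class transferases GSTM1 to GSTM4, near-identical copies whose reads may be split between them, with GSTM1 at 232 and 149.7 in Klf4 and 81.3 and 75.9 in OSK.

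Other members of the oxidative list showed the same division. GPX4, which removes lipid peroxides, fell from 6899 and 6506 to 3562 and 3685 (-0.89 ± 0.09, limma adjusted p = 2.1e-06), and the aldehyde dehydrogenase ALDH3B1 from 15066 and 11089 to 6108 and 4889 (-1.24 ± 0.18, adjusted p = 9e-05). NFE2L2, which encodes the oxidative stress regulator NRF2, was at 2926 and 2902 in Klf4 and 3450.5 and 3671 in OSK (limma adjusted p = 0.012; adjusted p = 0.12 without OSK replicate 2, 0.059 without Klf4 replicate 1 and 0.06 without Klf4 replicate 2). Its target NQO1 was at 361 and 298 in Klf4 and 207 and 208 in OSK (limma adjusted p = 0.0039; adjusted p = 0.069 without Klf4 replicate 1). The stress sensor SESN1 (393 and 330.2 to 762 and 749), the NADPH source IDH1 (1474 and 1476 to 2328 and 2343) and the aldose reductase AKR1B1 (1069.9 and 1104 to 1892 and 2864) rose. The 2 OSK libraries of AKR1B1 differed by more than those of SESN1 or IDH1. Leaving out each compared library in turn left 11 to 14 of the list higher and 10 to 18 lower.

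Growth factor and MAPK response genes had 15 of 63 higher and 17 lower (median 0.04, or 0.05 with members at 0 reads at their bound), and 10 to 15 higher and 15 to 17 lower with a library left out. The feedback genes of the ERK pathway were the most often changed, 9 of 19 higher and 6 lower. ETV5 (279 and 338 to 769 and 767, 1.32 ± 0.11, limma adjusted p = 2.2e-07) and ETV4 (34.7 and 28.6 to 83.5 and 81.4), transcription factors induced by FGF signalling, rose. The ERK antagonists SPRY4 (76.3 and 93.7 to 238 and 223) and SPRY2 (811 and 916 to 1172 and 1216), the phosphatase DUSP6 (96.00 and 75.4 to 145 and 133) and PHLDA1 (272 and 235 to 798 and 819) also rose. All 6 were higher than GFP in the Oct4 line, and all but SPRY4 (0.36, limma adjusted p = 0.084) in the Sox2 line, with DUSP6 at 2.97 in Oct4 and 3.75 in Sox2. DUSP7 (2718 and 2554 to 749 and 725), PHLDA2 (325 and 388 to 80.2 and 69.3) and the immediate early factor JUNB (10469 and 11025 to 4983 and 5028) fell. Among ligands and receptors the growth factor PDGFB fell from 112 and 118 to 10.8 and 25.3 (-2.72 ± 0.34, limma adjusted p = 1.9e-05). PDGFB was higher than GFP in the Oct4 and Sox2 lines (1.14 and 3.46). The receptor FGFR3 fell from 564 and 444 to 151 and 119.9. FGF1 was at 4.63 and 6.86 in Klf4 and 54.2 and 35.2 in OSK (limma adjusted p = 0.0048; adjusted p = 0.063 without OSK replicate 1). The binding protein IGFBP5 was at 74.02 and 86.8 in Klf4 and 179 and 305 in OSK (limma adjusted p = 0.0068; adjusted p = 0.13 without OSK replicate 2 and 0.063 without Klf4 replicate 1).

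**Figure D5:**
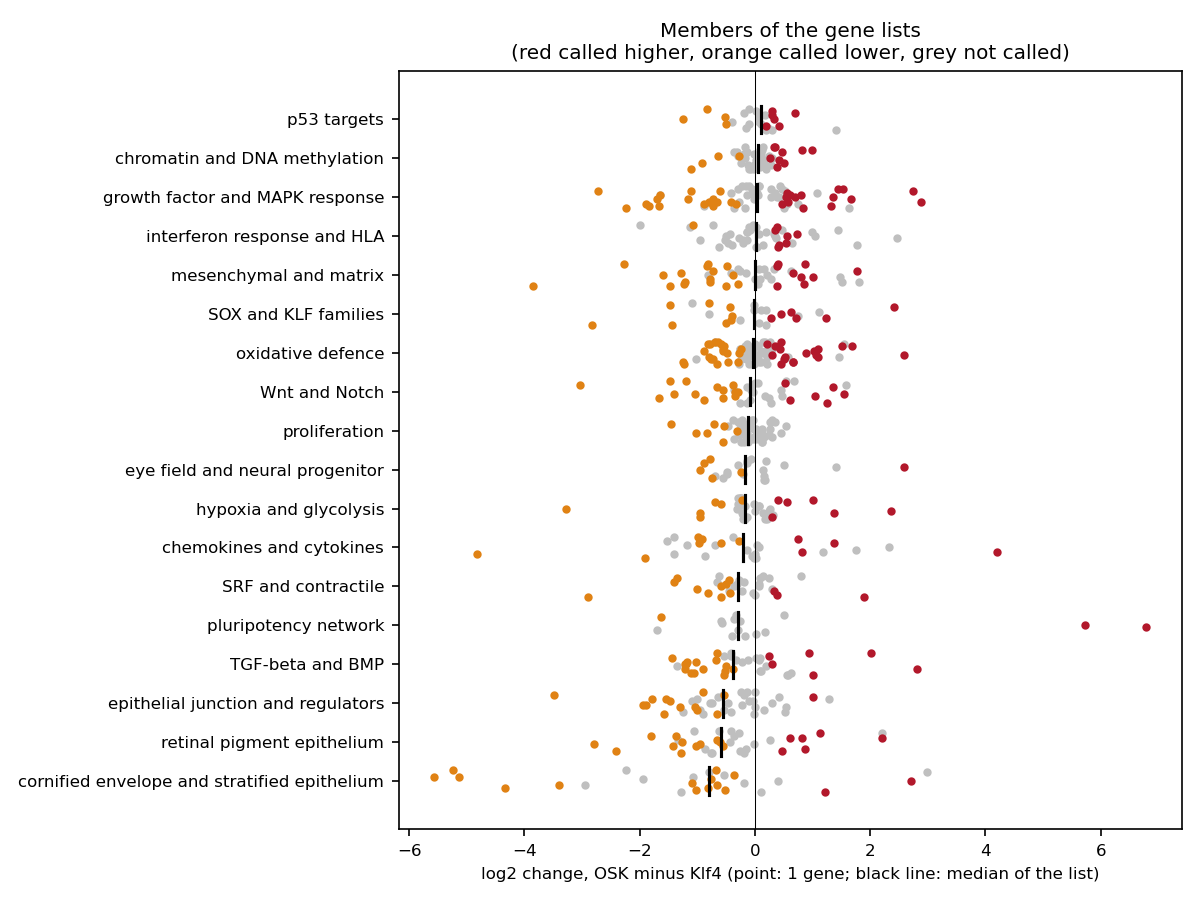
Log2 difference between OSK and Klf4 (horizontal axis) of each tested member (points) of 18 gene lists (rows), ordered by the list's median (black lines); red points were called higher, orange lower and grey not called. The lists of cornified envelope, retinal pigment epithelium and epithelial junction have the lowest medians, -0.80, -0.58 and -0.55.

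TGF-beta and BMP genes had 6 of 37 higher and 15 lower (median -0.38), and 4 to 5 higher and 15 lower with a library left out. The 4 ID genes, targets of BMP signalling that block differentiation factors, were all lower, with ID1 at 4127 and 4243 in Klf4 and 1792 and 1856 in OSK (-1.20 ± 0.10, limma adjusted p = 2.5e-07). ID3 was at 2219.6 and 2085 in Klf4 and 811 and 781 in OSK (-1.43 ± 0.12, adjusted p = 2.7e-07). The inhibitory SMAD6 fell from 4152 and 4350.0 to 1766 and 1920.4. ID1, ID3 and SMAD6 were also lower than GFP in both single-factor lines. Among secreted antagonists, follistatin FST, which binds activin, rose from 31.2 and 47.99 to 305 and 252 (2.81 ± 0.30, limma adjusted p = 4.4e-06), and noggin NOG, which binds BMPs, from 64.8 and 61.7 to 273 and 242 (2.01 ± 0.26, adjusted p = 3.7e-05). Over the 11 antagonists tested, 3 rose and 6 fell, so FST and NOG do not stand for the class. The receptor ACVR1 rose (575 and 569 to 1162 and 1144) and the latent TGF-beta binding protein LTBP2 fell (6482 and 9304 to 3035 and 3733).

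Wnt and Notch genes had 6 of 38 higher and 14 lower (median -0.08). With a library left out 6 to 7 were higher and 8 to 10 lower, 8 of them without OSK replicate 1. The Wnt receptor FZD7 (192 and 229 to 549.6 and 679.7) and the Wnt target AXIN2 (60.1 and 76.6 to 136 and 195) rose, and the ligand WNT2B fell (4025 and 3389 to 1354 and 1423). Of the Notch ligands JAG1 rose (2405 and 2115 to 4698 and 4603, 1.04 ± 0.09, limma adjusted p = 4.7e-07) and JAG2 fell (324 and 247 to 109 and 94.6, -1.47 ± 0.15, adjusted p = 3.9e-06). LFNG, which modifies Notch, was at 215 and 256 in Klf4 and 60.7 and 89.1 in OSK (limma adjusted p = 0.0043; adjusted p = 0.066 without OSK replicate 1 and 0.054 without Klf4 replicate 2).

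Of 56 proliferation genes, 0 rose and 7 fell (median -0.12), and 3 to 6 fell with a library left out. MKI67, the proliferation antigen, overlapped between the groups (2077 and 2721 in Klf4, 2167 and 1964 in OSK, limma adjusted p = 0.34), and was at a mean of 218 in GFP. Of 24 mitosis genes 1 fell and of 23 replication genes 0 were called, while 6 of 9 inhibitors and G1 cyclins fell, or 3 of 9 without OSK replicate 1. The inhibitor CDKN1C fell from 329.6 and 375 to 128 and 128 (-1.45 ± 0.17, limma adjusted p = 1.1e-05) and cyclin D1, CCND1, from 12567 and 11466 to 7343 and 7369. CDKN2A, which encodes p16, was at 124 and 125 in Klf4 and 78.05 and 61.6 in OSK (limma adjusted p = 0.0057; adjusted p = 0.08 without OSK replicate 2). Of 25 p53 targets 6 were higher and 4 lower (median 0.10), 3 to 4 in each direction with a library left out. The death receptor FAS fell from 666 and 511 to 227 and 264 and TP53I3 rose from 146 and 167 to 250.4 and 255. The inhibitor CDKN1A was at 4296 and 4061 in Klf4 and 3518 and 3294 in OSK (limma adjusted p = 0.14, and 0.0012 without GFP replicate 1).

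Interferon and HLA genes had 7 of 43 higher and 1 lower (median 0.01). Without OSK replicate 1, 2 were higher, and over the 4 left-out libraries 2 to 7 were higher and 1 to 2 lower. STAT2 (2576 and 2620.0 to 3943 and 3609), which carries the interferon signal, rose with and without OSK replicate 1, and IRF7 fell (685 and 592 to 273 and 330.0). HLA-B was at 6245 and 4542 in Klf4 and 8274 and 7342 in OSK (limma adjusted p = 0.0028; adjusted p = 0.052 without OSK replicate 1 and 0.052 without Klf4 replicate 2), and HLA genes share near-identical sequence. In the list of chemokines and cytokines 4 of 28 were higher and 7 lower (median -0.21, or -0.28 with members at 0 reads at their bound), and 1 to 3 and 5 to 7 with a library left out. LIF, a cytokine of the interleukin 6 family, fell from 4460.0 and 4475 to 1199 and 1176 (-1.91 ± 0.16, limma adjusted p = 3e-07), and OSMR, a receptor of the same family, rose from 541 and 529 to 931 and 954. CSF1 fell from 1173 and 926 to 495 and 557. CCL2 was at 91.4 and 146 in Klf4 and 247 and 365 in OSK (limma adjusted p = 0.015; adjusted p = 0.17 without OSK replicate 2 and 0.17 without Klf4 replicate 1).

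Hypoxia and glycolysis genes had 6 of 38 higher and 6 lower (median -0.18), and 3 to 4 higher and 5 to 7 lower with a library left out. Carbonic anhydrase CA9, a surface enzyme induced by hypoxia, fell from 2792 and 1756 in Klf4 to 279.7 and 186 in OSK (-3.27 ± 0.31, limma adjusted p = 1.3e-06), and was at a mean of 77.8 in GFP. The glucose transporter SLC2A1, in the same list, rose, and the hypoxia genes P4HA2 (1449 and 1284 to 709 and 702) and DDIT4 (2508 and 2147 to 1127 and 1281) fell. LDHA, which makes lactate, was at 7279 and 6879.7 in Klf4 and 10462 and 10247 in OSK (limma adjusted p = 0.01; adjusted p = 0.073 without OSK replicate 1, 0.066 without OSK replicate 2 and 0.07 without Klf4 replicate 2). Chromatin and DNA methylation genes had 9 of 46 higher and 4 lower (median 0.05), and 5 to 8 higher and 3 to 4 lower with a library left out. JARID2, a partner of the polycomb complex PRC2, rose from 386 and 481 to 821 and 894 (0.99 ± 0.12, limma adjusted p = 1.5e-05) and the remodeller CHD7 from 430.3 and 419 to 780.5 and 715. The demethylation enzyme TET3 fell from 862 and 704 to 352 and 368 (-1.11 ± 0.11, adjusted p = 1.3e-06), as did the polycomb protein CBX7 (1424 and 1312 to 893 and 866).

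Of the 27 markers of other cell types 9 were tested, with 2 higher and 1 lower. KDR, an endothelial receptor, was at 642 and 700.4 in Klf4 and 476 and 504 in OSK. The muscle myosins MYH1 (0 and 0 in Klf4, 23.9 and 26.4 in OSK) and MYH2 (2.31 and 1.14 in Klf4 and 7.59 and 17.6 in OSK) are near-identical copies at low levels, and of the other muscle markers MYOD1 was at 0 in all 4 libraries. MYOG was at 1.08 in OSK replicate 1 and at 0 in the other 3, and DES was at 23.1 and 10.3 in Klf4 and 4.34 and 1.1 in OSK. The call of MYH1 was lost at a limma adjusted p = 0.061 without OSK replicate 1, 0.078 without OSK replicate 2 and 0.054 without Klf4 replicate 1. That of MYH2 was lost at a limma adjusted p = 0.27 without OSK replicate 2, 0.07 without Klf4 replicate 1 and 0.16 without Klf4 replicate 2. At the margin of the call, ACBD5 passed with a limma adjusted p of 0.04998 and ZNF630, at 0.05001, did not. At the margin of the filter on low values, ZC3H11A had a second highest value of 10.1 over the 11 libraries and was tested, and FRG1DP, with 9.93, was not.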

How the data were processed

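RNA-seq of 11 ARPE-19 libraries was used as 1 table of normalised counts. The deposited signal values are gene counts that the authors divided by one factor per library and rounded to 2 decimals, as the values themselves show: low values are whole multiples of one step per library (tolerance 0.0061). STAR 2.7.1a, featureCounts 1.6.2 and the builds GRCh38, hg38, GRCm38 and mm10 are named per the submitters' processing notes, without their roles, and the scaling step is not given in the sources used here. Per the labels' protocols, TRIzol was used for extraction, oligo(dT) for selection and NEBNext Ultra II for the libraries.

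Genes that reached 10 normalised counts in 2 or more libraries entered limma 3.58.1 (R 4.3.3) on log2(value + 1), with a mean for each group over all 11 libraries (6 residual degrees of freedom) and Benjamini-Hochberg adjustment at 0.05. A fold change is on the log2(value + 1) scale, which understates the change of low genes. Since whole reads were recovered, edgeR 4.0.16 and DESeq2 1.42.0 were run on them as alternatives, beside other pseudocounts, filters and left-out libraries. The fit was tested on simulated data, in which the share of false calls was above the threshold of 0.05 at each fold size and many changed genes of low level were missed, so single calls near the threshold are less certain than their adjusted p states. Exact intervals on ratios of reads cover counting error only.

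Genes are named by a rule: the factor genes and GSTA4, the 10 largest rises and falls among called genes with a mean of at least 50 in a group and no overlap of the libraries, up to 3 rises and falls for a list, and up to 4 for a class. Genes named beyond those numbers, among them MKI67, CDKN1A, MITF, DSP, ETV5, ID1, GCLC, NFE2L2, ZEB1 and FGF1, were chosen after their values were seen. The members and lists were chosen with earlier results of these data known. Some genes are not reported here.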

Additional observations from a re-analysis of the deposited data

How the results depend on the processing

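None of the 196 genes followed under the alternatives run reversed its direction. Some genes given in the text only by their levels, such as the marker VWF, were not among those followed. Of 196 named genes, 192 kept their side of the threshold with edgeR, 178 with DESeq2, 183 without a filter, and 170 to 174 with 1 of the 4 compared libraries left out. With edgeR 3794 genes were called, with DESeq2 3406 and without a filter 3054, against 4049. Leaving out 1 library moved the number called from 2519 (without OSK replicate 2) to 4905 (without GFP replicate 1), the number higher from 996 to 2200 and the number lower from 1439 (without Klf4 replicate 1) to 2705. The genes higher with neither Oct4 nor Sox2 numbered 394 without OSK replicate 1 and 856 without GFP replicate 1, and those lower with Oct4 but not Sox2 numbered 155 and 296. Fits with a lone library in a group rest on fewer samples. Deviations of OSK and Klf4 libraries with the same replicate number in their titles correlated at -0.0050, and a fit with the replicate block called 3744 genes. With 2 libraries in each of these groups, and OSK replicate 1 standing apart, these values cannot tell whether the libraries were paired. Genes with few reads are the least precise, with a counting interval of 20.2 to 4576 on the ratio of reads of ERVE-1.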
